A study of Danio rerio with 14 samples.

Results

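The transcripts described here were abundant in zebrafish embryos at 4 hours post fertilization (hpf) and had fallen steeply in whole embryos by 9 hpf. They were also present in ZF4 cells, a fibroblastic line derived from zebrafish embryos. They were chosen on Affymetrix arrays by 3 conditions on the deposited log2 values: a mean of 8 or more in untreated embryos at 4 hpf, a mean at least 3 lower in untreated embryos at 9 hpf, and a value of 8 or more on both ZF4 arrays. Probe sets with a single gene symbol were eligible, and symbols starting with slc, wnt, col, cdc or ccn were left out. The conditions found 87 probe sets for 82 genes among 15502 probe sets, of which 10795 had a single symbol. Among the 4334 probe sets with a single symbol and a mean of 8 or more at 4 hpf, another 348, for 325 genes, fell as far by 9 hpf and did not reach 8 on both ZF4 arrays. They serve below as the other cleared transcripts, where cleared means a fall of this size and not absence at 9 hpf. Another 3 probe sets passed every value and were left out for their symbols, cdc34a, slc27a1a and slc16a3b.

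The arrays measured total RNA of whole embryos collected at 4, 6 and 9 hpf, either untreated or kept in retinoic acid (RA) from the 2-cell stage until collection, and of ZF4 cells without treatment. Each of the 7 groups held 2 arrays, 14 in all. The study's methods name the fish strain as Ekkwill (EK), with eggs from natural matings. Neither the labels nor the methods tell if replicate arrays had separate clutches or cultures behind them, so p-values measure only the spread between these arrays, which may be technical. ZF4 is a single line that grows in culture, and its cells are no sample of a tissue of the embryo at any of these stages.

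An egg is loaded with messenger RNA made by the mother during oogenesis, and this maternal supply runs the first cell cycles before the embryo's own genome is switched on. The supply is then removed in overlapping waves. An early wave relies on maternal proteins, and a later one needs products of the embryo's own genome, among them the microRNA miR-430, which in zebrafish shortens the tails of many maternal messages. Many cleared messages encode oocyte proteins with no use in body cells. Others encode enzymes and organelle proteins that nearly every growing cell needs, and a message for such a protein can return later from the embryo's own genome.

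Most marker genes followed the labels, with exceptions. Of 20 fibroblast and mesenchymal marker genes, 14 were measured, and 12 of them lay above the background level on both ZF4 arrays. At untreated 4 hpf 3 did, at untreated 9 hpf 6 and at RA 9 hpf 7. One of the 14, thy1, went the other way, with 12.73 and 12.47 at untreated 4 hpf and 4.75 and 3.48 in ZF4. fn1b and fn1a were higher at untreated 9 hpf (9.00 and 8.53, 10.92 and 11.04) than in ZF4 (5.46 and 4.83, 10.61 and 10.60). Of 8 measured oocyte genes, all 8 were above background at 4 hpf and 2 in ZF4, and ZF4 showed 0 of 6 yolk syncytial layer genes, 0 of 4 blood and endothelial genes and 2 of 8 enveloping layer genes. Among the latter, krt18a.1 was high in ZF4, at 12.08 and 12.03. Of 6 measured germ cell genes, all 6 were above background at untreated 4 hpf and 1 in ZF4, dnd1, at 8.32 and 8.85. The background level was 5.30, the 95th percentile of 17 control probe sets that match no zebrafish gene. Replicate arrays correlated at 0.929 to 0.952 over all probe sets. The RA arrays shared more than their stage with some untreated arrays. RA replicate 2 of 9 hpf was nearest to untreated replicate 1 of 9 hpf, at r = 0.958, and RA replicate 1 of 4 hpf to untreated replicate 1 of 4 hpf, at r = 0.955. At 6 hpf untreated replicate 2 was nearest to RA replicate 1, at r = 0.944, against 0.936 with its own replicate. The 2 arrays of a group at 9 hpf also differed in yolk syncytial layer genes. apoa1a read 11.93 and 7.87 on untreated replicates 1 and 2, and 6.99 and 11.62 in RA. The summed level of the 6 genes ran from 8.65 to 13.02 untreated and from 7.92 to 12.49 in RA. The arrays of 4 hpf differed in enveloping layer genes, with krt4 at 5.56 and 10.20 untreated and 4.66 and 8.91 in RA. The summed level of the 8 measured enveloping layer genes ran from 9.29 to 12.06 untreated and from 8.69 to 11.01 in RA. Untreated replicate 2 of 4 hpf correlated at 0.823 and 0.843 with the untreated arrays of 6 hpf, against 0.748 and 0.775 for replicate 1. Means at 4 and 9 hpf therefore average unlike arrays. The part of this in the falls and in the comparisons with ZF4 was not tested. Over the 87 probe sets, the difference between the 2 arrays of a group was correlated between RA and untreated embryos. The correlation was 0.55 at 4 hpf, -0.30 at 6 hpf and -0.44 at 9 hpf. The RA arrays are therefore arrays that the choice of members did not use, but their material may be related to the arrays it did use.

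**Figure D1:**
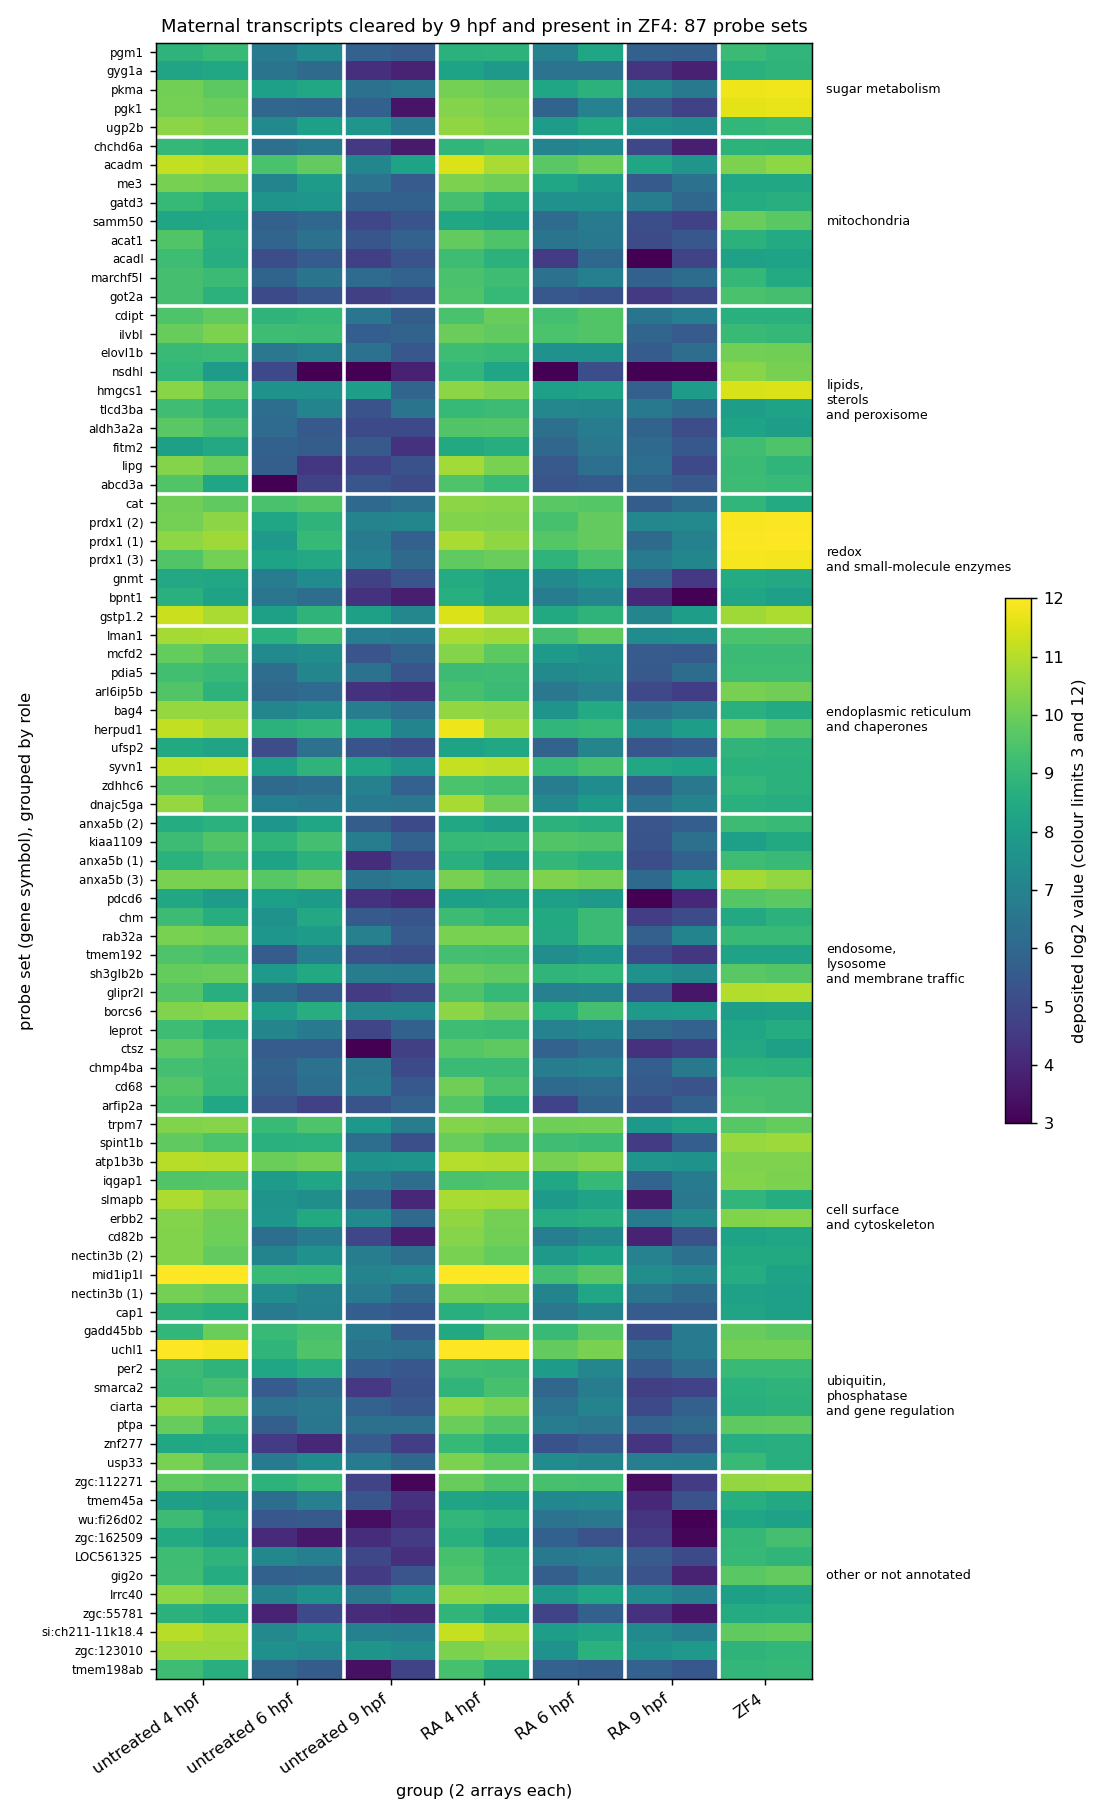
Deposited log2 values (colour) of the 87 probe sets (rows, grouped by role and ordered within a role by how little of the fall had come by 6 hpf in RA) on the 14 arrays (columns, 2 for each group); numbers after a symbol count the probe sets of that gene. Values were high at 4 hpf with and without RA, lower at 9 hpf, and 8 or more on both ZF4 arrays, and they differed most between rows at 6 hpf.

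The values that chose the members are a description and carry no test. Untreated means at 4 hpf ran from 8.03 for tmem45a to 12.81 for mid1ip1l, and untreated means at 9 hpf from 2.78 for nsdhl to 8.01 for syvn1. The falls ran from 3.05 to 5.82 with a median of 3.55, and no untreated 9 hpf array reached an untreated 4 hpf array of the same probe set. At 9 hpf 21 of the 87 were at or below the background level on both untreated arrays and 15 on 1 of them. For these the fall was not measured in full, and its stated size rests in part on values below background. Probe sets on each side of the limits lay close together. At the limit on the fall, gatd3, trpm7 and kiaa1109 were just inside with falls of 3.05, while timm29, kifc3 and spsb1 were just outside with 2.998, 2.989 and 2.961. At the limit on ZF4, tlcd3ba, aldh3a2a and borcs6 were inside with lower arrays at 8.03, 8.05 and 8.05, while rnf175, msi2b and vipas39 were outside at 7.98, 7.97 and 7.92. At the limit on 4 hpf, tmem45a, pdcd6 and zgc:162509 were inside with 8.03, 8.18 and 8.28, while ctnna2, rin3 and akr1b1.2 were outside with 7.93, 7.90 and 7.83. The untreated 9 hpf means of tmem45a, pdcd6 and zgc:162509 were 4.85, 4.15 and 4.37, below background. Counted down to the background level only, their falls would be under 3.

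Sorted by what their proteins do, a grouping made after the names were known, the 82 genes were mostly enzymes and organelle proteins. 5 genes handle sugars, 9 belong to mitochondria, 10 to lipids, sterols and the peroxisome, 5 to redox and small-molecule chemistry, 10 to the endoplasmic reticulum and protein folding, 14 to endosomes, lysosomes and membrane traffic, 10 to the cell surface and cytoskeleton, and 8 to ubiquitin, phosphatases and gene regulation. The remaining 11 had other roles or were not annotated, 7 of them with only a code for a name. Neither the other cleared transcripts nor all measured genes were sorted in this way, so the counts do not set the members apart.

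The question for arrays outside the choice was whether the same transcripts fell under RA. They did, but the choice had required such a fall in untreated embryos at the same stages, and the RA material may be related. The result is therefore no independent test. All 87 probe sets were lower in RA embryos at 9 hpf than at 4 hpf, against 24.7% of all probe sets tested, and the arrays of 9 hpf lay below those of 4 hpf for each of them (34.4% of all probe sets had no overlap in this direction). The median change was -3.63 on the log2 scale, where the median over all probe sets was 0.25, and the largest adjusted p among the 87 was 0.0025. The other cleared transcripts fell too, 347 of 348 with a median of -4.11. Of all 15502 probe sets, 6630 and 6435 were at or below background on the 2 RA arrays of 4 hpf, where a fall could not be measured. On the RA arrays at 9 hpf 19 members were at or below background on both arrays and 15 on 1 array, and their folds are given as bounds or with the number of arrays that measured them.

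Among members with names other than codes, the largest falls in RA were spread over unrelated roles. mid1ip1l encodes a protein of the egg cortex whose maternal loss in zebrafish disturbs the cytoskeleton after fertilization. It read 13.16 and 12.79 in RA at 4 hpf, 9.30 and 9.68 at 6 hpf and 7.44 and 7.15 at 9 hpf, above background throughout. Its fall was 51.3-fold, -5.68 ± 0.20 (SE) on the log2 scale, with an adjusted p of 2.5e-06. uchl1, a ubiquitin hydrolase, read 12.35 and 11.99 at 4 hpf, 9.83 and 10.20 at 6 hpf and 6.18 and 6.70 at 9 hpf. The stages did not overlap, and the fall was 52.9-fold with an adjusted p of 5.4e-06. slmapb, a membrane-anchored protein of the sarcolemmal membrane-associated family, read 10.85 and 10.84 at 4 hpf and 3.56 and 6.59 at 9 hpf, where 1 of 2 arrays measured it above background. Its arrays of 9 hpf differed more from each other than those of any gene just named, and its adjusted p was 0.00041.

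Members that left the measured range have a least fold only. cd82b, a tetraspanin of the cell surface, read 10.37 and 10.09 in RA at 4 hpf and 3.89 and 5.22 at 9 hpf, a fall of at least 30.5-fold. ctsz, a lysosomal cathepsin, went from 9.64 and 9.78 to 4.27 and 4.66, a fall of at least 21.2-fold. For both genes the 2 arrays of 9 hpf lay far below those of 4 hpf and below the background level. nsdhl, an enzyme of cholesterol synthesis, went from 8.97 and 8.33 to 1.58 and 0.69, at least 10.2-fold, and pdcd6, a calcium sensor of membrane traffic and repair, from 8.09 and 8.17 to 0.89 and 4.00, at least 7.12-fold. Their fitted log2 changes, of -7.52 and -5.69, were among the largest and came from values that carry no order below background.

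Another 7 members were named by size of fall. At 9 hpf 4 of them were at or below background on both RA arrays, and their falls were at least 8.83-fold for bpnt1 (a phosphatase of sulfation by-products), 13.6-fold for chchd6a (a protein of the mitochondrial cristae junction), 15.9-fold for glipr2l and 12.8-fold for acadl (a mitochondrial acyl-CoA dehydrogenase). The other 3 had 1 of 2 arrays above background. ciarta, a clock repressor, went from 10.53 and 10.23 to 4.99 and 5.77. With the array below background averaged in, the falls were 28.6-fold for lipg (a secreted lipase) and 25.1-fold for gig2o, so neither size is fully measured. For gig2o the 9 hpf arrays read 5.303 and 3.848, the higher of them barely above the background level of 5.302. Among members with names other than codes, the smallest falls were those of trpm7, borcs6, sh3glb2b, gatd3 and 1 probe set of anxa5b. Their log2 changes were -2.65 to -2.31. trpm7, a channel with a kinase domain, read 10.34 and 10.24 at 4 hpf and still 7.79 and 8.18 at 9 hpf. borcs6, a subunit of the complex that ties lysosomes to microtubules, read 10.44 and 10.06 and then 7.84 and 7.94. Even these smallest falls, 4.95-fold and 5.13-fold, left no overlap between the stages.

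**Figure D2:**
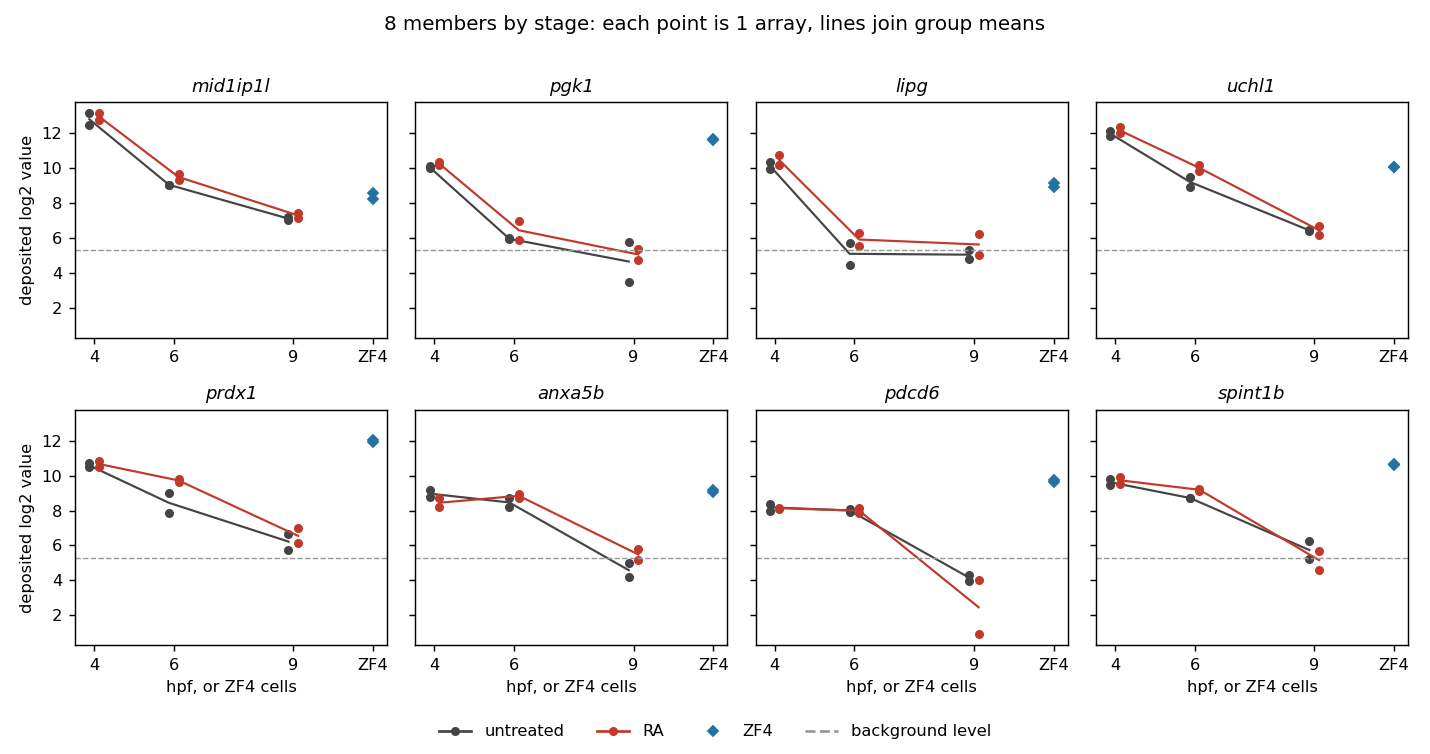
Deposited log2 values of 8 members (vertical axis) against stage in hpf, with ZF4 at the right; each point is 1 array, lines join the means of untreated and RA embryos, the dashed line is the background level of 5.30, and anxa5b and prdx1 are shown by 1 of their 3 probe sets. mid1ip1l, pgk1 and lipg had lost most of their signal by 6 hpf, while anxa5b, pdcd6 and spint1b were still near their 4 hpf values at 6 hpf.

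The transcripts did not fall together. Between 4 and 6 hpf in RA 69 of the 87 fell (18.9% of all probe sets did), with a median change of -2.07, and between 6 and 9 hpf 58 fell (8.97%, while 6.05% of all probe sets rose), with a median of -1.60. The later count rests on the RA arrays of 6 hpf, since 38 passed without replicate 1 of them and 23 without replicate 2. 40 fell in both intervals (3.07%), 29 passed the test in the earlier interval alone (14.5%) and 18 in the later alone (4.95%). Among the other cleared transcripts the 3 counts were 177, 123 and 42 of 348. The share of the RA fall that had come by 6 hpf had a median of 55.5% over the members and ran from -19.4% for anxa5b to 107% for abcd3a. For members that reached the background level by 9 hpf this share is not a measured one, since the later fall is cut short there. abcd3a lay close above that level at 6 hpf, so its share is limited in the same way. In untreated embryos, where the ends of the interval chose the members, that share had a median of 64.6%. Across the 87 probe sets, the change from 4 to 6 hpf correlated at 0.929 between RA and untreated embryos, which share a platform and each probe's response, and genes are not independent replicates.

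Passing in one interval and missing in the other does not show that the intervals differed, so the difference itself was tested, in a comparison added after the data had been seen. For 16 probe sets the fall before 6 hpf was the larger and for 16 the fall after 6 hpf. Over all probe sets 7.63% and 10.6% had calls of the same signs. Those shares include genes that rose, so they are not shares of larger early or late falls. The members called here were singled out after their values were seen, and their calls rest on the RA arrays of 6 hpf. Without RA replicate 1 of 6 hpf 0 of the first 16 and 2 of the second remained called, and without RA replicate 2 of 6 hpf 0 and 5 remained. Of the early calls, 6 remained without RA replicate 1 of 4 hpf, 9 without RA replicate 2 of 9 hpf, and 9 without either untreated array of 6 hpf. The direction stayed the same for each of the 32 under every alternative run.

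Among the genes called for a larger early fall, several left the measured range. ctsz and got2a were at or below background on both RA arrays of 9 hpf, and arfip2a, lipg, acat1, pgk1, ciarta and znf277 on 1 of them, so that their later fall, and with it the difference between the intervals, was not measured in full. lipg read 10.73 and 10.18 in RA at 4 hpf, 5.53 and 6.29 at 6 hpf and 6.25 and 4.99 at 9 hpf, so that the later stages overlapped and lay near background. got2a, the mitochondrial aspartate aminotransferase, read 9.54 and 9.04, then 5.48 and 5.28, then 4.53 and 4.92. Its arrays of 9 hpf and 1 of those of 6 hpf lay below background. pgk1, phosphoglycerate kinase of glycolysis, read 10.33 and 10.20, then 5.90 and 6.98, then 5.36 and 4.74. Its fall before 6 hpf was 14.2-fold, with an adjusted p of 0.00027, and its further change did not pass, with an adjusted p of 0.055. The others were abcd3a (a peroxisomal transporter), acat1 (a mitochondrial thiolase), marchf5l (named for a mitochondrial ubiquitin ligase), arfip2a, cd68 and ctsz of the endolysosomal system, ciarta, usp33 (a deubiquitinase), ptpa (an activator of phosphatase PP2A), znf277, tmem198ab, mid1ip1l and si:ch211-11k18.4. In RA at 6 hpf abcd3a read 5.36 and 5.54 and tmem198ab 5.83 and 5.72, and at 9 hpf cd68 read 5.51 and 5.31. These values lay close above the background level of 5.30, so the later fall of these genes may also be cut short.

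The genes called for a larger late fall had lost little in RA by 6 hpf, when gastrulation begins, at most 1.69-fold. The calls cover RA embryos alone. In untreated embryos the changes of these probe sets from 4 to 6 hpf ran from -1.70 for 1 of prdx1 to -0.18 for pdcd6 on the log2 scale. For trpm7, 33.8% of the untreated fall had come by 6 hpf, against 10.5% in RA. All 3 probe sets of anxa5b, an annexin that binds phosphatidylserine on membranes, behaved alike. One of them read 8.71 and 8.18 in RA at 4 hpf, 8.95 and 8.74 at 6 hpf and 5.16 and 5.79 at 9 hpf, the 6 hpf arrays being the highest. The changes from 4 to 6 hpf were 0.25 to 0.51 for the 3 probe sets, with adjusted p of 0.20 to 0.68, and those from 6 to 9 hpf -3.38 to -3.16, with adjusted p of 0.00061 to 0.0018. The 3 share a gene and in part its sequence and count as 1 case. pdcd6 read 8.12 and 7.86 at 6 hpf against 8.09 and 8.17 at 4 hpf, and then fell at least 6.45-fold.

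Other late genes had other jobs. spint1b, an inhibitor of the membrane protease matriptase in epithelia, read 9.92 and 9.55 in RA at 4 hpf, 9.24 and 9.13 at 6 hpf and 4.61 and 5.70 at 9 hpf. The early change of -0.55 did not pass (adjusted p = 0.25), and the late change was 16.4-fold (adjusted p = 0.0004) with 1 of 2 arrays above background. cat, catalase, read 10.45 and 10.38, then 9.69 and 9.62, then 5.64 and 6.19, so that 16.9% of its fall had come by 6 hpf. Its late fall was 13.4-fold, with an adjusted p of 0.00015. gadd45bb, a stress-response gene, read 8.46 and 9.40, then 9.10 and 9.70, then 5.16 and 6.67, and chm, a Rab escort protein, 9.17 and 8.89, then 8.45 and 9.14, then 4.62 and 5.07. For each of these 4 genes the 9 hpf arrays lay below every array of 4 and 6 hpf. The rest were ilvbl, cdipt (phosphatidylinositol synthase), kiaa1109 (a lipid transfer protein), trpm7, atp1b3b (a subunit of the sodium pump), zgc:112271, and 2 of the 3 probe sets of prdx1.

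**Figure D3:**
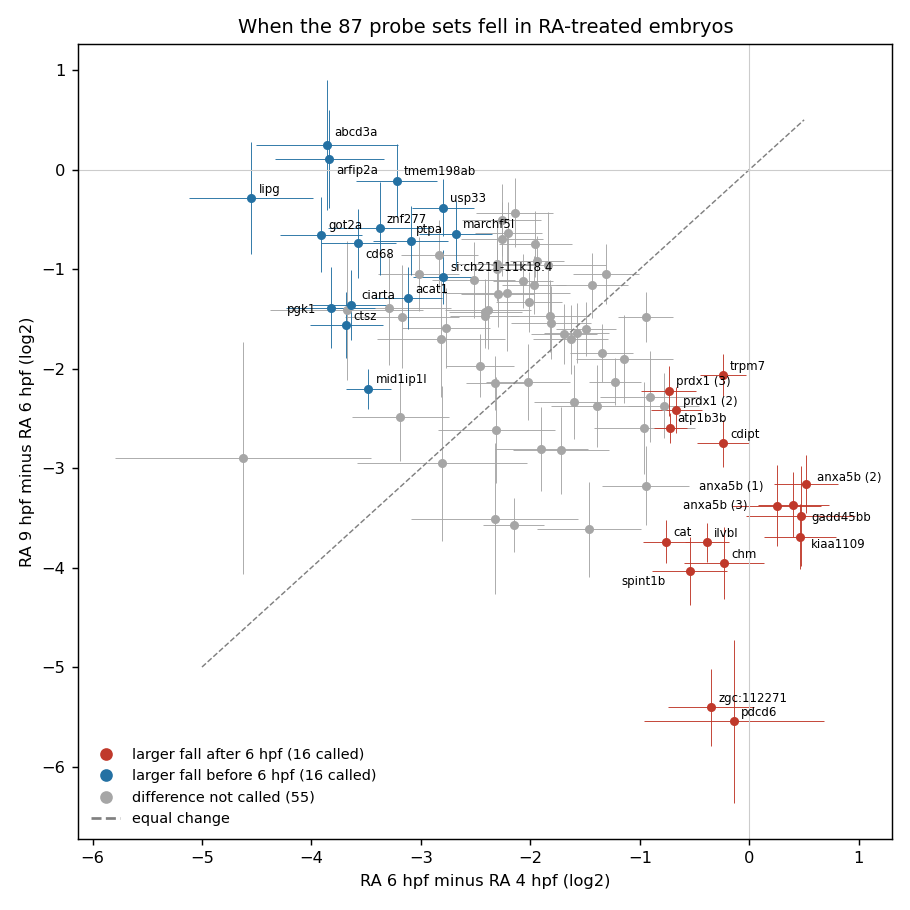
Change from RA 4 to RA 6 hpf (horizontal, log2) against the change from RA 6 to RA 9 hpf (vertical, log2) for the 87 probe sets; bars are standard errors of the fit, the dashed line marks equal change, and colours mark the 16 probe sets called for a larger late fall, the 16 called for a larger early fall and the 55 not called. The late group lies at early changes between -0.76 and 0.51 and the early group at -4.55 to -2.68.

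Of the 9 roles, 5 held early and late calls side by side. Among the 16 probe sets of endosomes, lysosomes and membrane traffic, 3 were called for the larger early fall and 6 for the larger late fall, and their median share of the fall reached by 6 hpf was 38.4%. Among the 7 probe sets of redox and small-molecule enzymes the median share was 24.9%, with 0 early and 3 late calls, 2 of which belong to prdx1. Among the 10 of the endoplasmic reticulum it was 63.5%, with no call in either direction, and all 10 fell between 4 and 6 hpf. These were herpud1 and syvn1 (removal of misfolded proteins), pdia5 (a disulfide isomerase), lman1 and mcfd2 (the paired cargo receptor that carries proteins to the Golgi), zdhhc6 (a palmitoyltransferase), ufsp2 (a peptidase that matures the modifier UFM1), arl6ip5b, bag4 and dnajc5ga. Among the 9 of mitochondria all 9 also fell by 6 hpf. They were acadm and acadl, acat1, got2a, me3 (malic enzyme), chchd6a, samm50 (assembly of outer-membrane proteins), marchf5l and gatd3. The members not described by values elsewhere were rab32a (a GTPase of lysosome-related organelles), chmp4ba (which helps to cut membranes) and leprot of membrane traffic, gstp1.2 (a glutathione transferase) and gnmt (a glycine methyltransferase) of small-molecule chemistry, erbb2 (a receptor tyrosine kinase) and nectin3b (an adhesion molecule, with 2 probe sets) of the cell surface, smarca2 (a motor of chromatin remodelling), and lrrc40, zgc:123010, zgc:55781, wu:fi26d02 and LOC561325. The counts per role are small, no test compared the roles, and probe sets of 1 gene are not separate cases.

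Whether RA changed the members could be asked without the arrays that chose them at 6 hpf only. There no member passed the test in either direction (limma; over all probe sets the calls came to 0.148% upward and 0.0194% downward). At an unadjusted p under 0.05, 18 of the 87 were higher in RA (4.15% of all probe sets) and 1 was lower (3.08%). The values leaned one way. 80 of 87 were above 0 with a median of 0.55, which was 0.36 without untreated replicate 1 of 6 hpf, 0.37 without RA replicate 2 of 6 hpf and 0.78 without RA replicate 1, where the median of all probe sets was -0.02, and for 54 both RA arrays lay above both untreated arrays (19.3%), while for 3 they lay below (22.1%). The other cleared transcripts had the same lean, 321 of 348 above 0 with a median of 0.52.

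The smallest p in that comparison belonged to 1 of the 3 probe sets of prdx1, a peroxiredoxin. It read 8.33 and 8.85 untreated and 9.40 and 9.85 in RA at 6 hpf, a difference of 1.03 ± 0.23 (SE; unadjusted p = 0.0021, adjusted p = 0.25). The groups did not overlap, and the other 2 probe sets of the gene differed by 1.28 and 0.81 in the same direction. trpm7 came next and read 9.09 and 9.53 untreated and 10.01 and 10.09 in RA, again without overlap (0.74 ± 0.21, unadjusted p = 0.0071, adjusted p = 0.40). tmem192, a lysosomal membrane protein, read 5.61 and 6.89 untreated and 7.41 and 7.71 in RA (1.31 ± 0.44, adjusted p = 0.55). abcd3a read 2.56 and 4.74, both below background, against 5.36 and 5.54. per2, a period gene of the circadian clock, read 8.31 and 8.66 untreated and 7.99 and 7.16 in RA (-0.91 ± 0.35, adjusted p = 0.63). It was 1 of 7 members below 0 and, with LOC561325 (-0.32) and gatd3 (-0.09), 1 of the 3 whose RA arrays both lay below both untreated arrays. These genes were singled out after their values were seen.

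Other values moved with that lean. The 17 control probe sets had medians of 3.56 and 3.40 on the RA arrays of 6 hpf and of 1.83 and 1.94 on the untreated ones. The RA arrays of 6 hpf correlated at 0.817 on average with the arrays of 4 hpf and at 0.882 with those of 9 hpf, against 0.788 and 0.893 for the untreated arrays of 6 hpf. The summed level of the 8 measured oocyte markers, btg4, buc and cldnd among them, ran from 12.14 to 12.61 in RA and from 11.73 to 11.91 untreated, and 8 and 7 of the 8 were above background on both arrays. The part of array background and of developmental timing in the lean was not tested. In whole embryos, fewer cells holding a transcript and less of it per cell cannot be told apart. At 4 and 9 hpf, where untreated arrays chose the members, RA minus untreated had a median of 0.06 and of 0.06 over the 87.

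**Figure D4:**
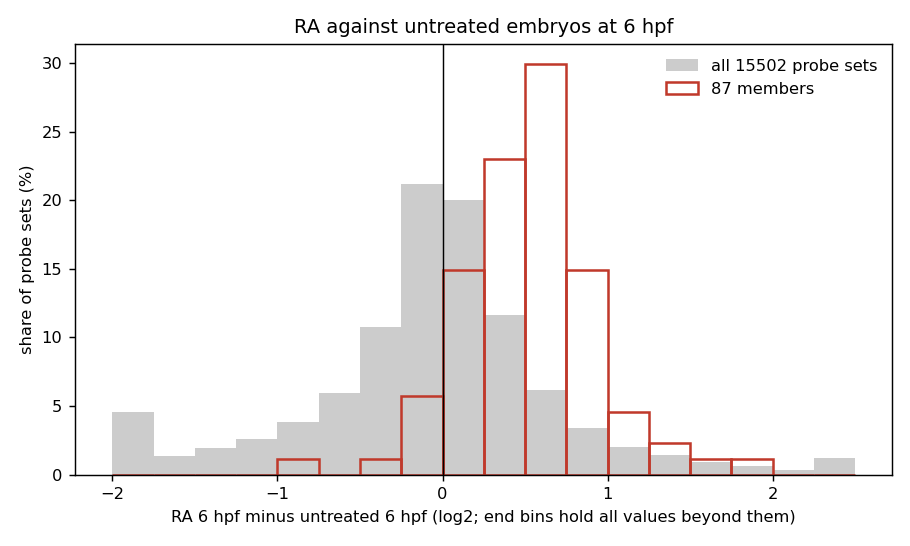
Difference between RA and untreated embryos at 6 hpf (horizontal, log2, in steps of 0.25) as a share of the 87 members (red outline) and of all 15502 probe sets (grey). Most members lie above 0, with a median of 0.55 against -0.02 for all probe sets, and none of them passed the test.

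In ZF4 the members lay on either side of their level at untreated 4 hpf. The study puts the start of the embryo's own gene expression at about this stage. No array came earlier, so maternal origin of the 4 hpf signal was not measured. Since the ZF4 arrays and the 4 hpf arrays chose the members, these values are a description. The ZF4 mean was above the untreated 4 hpf mean for 36 probe sets and below it for 51. Both ZF4 arrays lay above both untreated 4 hpf arrays for 26 (37.2% of all probe sets did) and below for 44 (38.8%). The ZF4 arrays were close, with a median SD over the members of 0.066, against 0.212 at untreated 4 hpf and 0.419 at untreated 9 hpf. Levels are compared within a probe set only, since probes differ in how strongly they respond.

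Glycolysis and sterol synthesis had genes well above the 4 hpf level. pkma, a pyruvate kinase, read 10.08 and 9.72 at untreated 4 hpf, 6.39 and 6.63 at 9 hpf and 11.77 and 11.82 in ZF4, 3.72-fold above 4 hpf. pgk1 read 10.12 and 9.99, then 5.79 and 3.50, and 11.63 and 11.70 in ZF4, 3.05-fold above. hmgcs1 and nsdhl act at an early and a late step of cholesterol synthesis. hmgcs1 read 10.39 and 9.72 at 4 hpf, 8.0 and 5.94 at 9 hpf and 11.45 and 11.53 in ZF4, 2.70-fold above 4 hpf. Its 9 hpf arrays differed by as much in RA, at 5.78 and 7.98. nsdhl read 8.95 and 7.97 at 4 hpf and 10.39 and 10.16 in ZF4, 3.51-fold above. The other sugar genes were nearer the 4 hpf level or under it, with pgm1 and gyg1a (glycogenin) 0.03 and 0.49 above and ugp2b (which makes UDP-glucose) 1.33 below on the log2 scale.

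The 3 probe sets of prdx1 were 2.67-fold, 3.11-fold and 4.08-fold above 4 hpf in ZF4, with 6 values between 11.84 and 12.06, and none of them overlapped the embryo at any stage. glipr2l read 9.59 and 8.69 at 4 hpf, 4.55 and 4.88 at 9 hpf and 10.97 and 11.01 in ZF4, 3.61-fold above 4 hpf. pdcd6 at 9.64 and 9.73, samm50 at 9.94 and 9.69 and spint1b at 10.61 and 10.69 in ZF4 were 2.84-fold, 2.80-fold and 2.04-fold above their 4 hpf means. fitm2 (lipid droplet formation), elovl1b (fatty acid elongation), iqgap1 (a scaffold at the cell cortex) and arl6ip5b were 0.70 to 1.09 above on the log2 scale. For all of these, both ZF4 arrays lay above both 4 hpf arrays.

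Other genes were present in ZF4 well below the 4 hpf level. mid1ip1l read 13.16 and 12.45 at untreated 4 hpf, 7.02 and 7.19 at 9 hpf and 8.58 and 8.23 in ZF4, 21.2-fold below 4 hpf. syvn1, a ubiquitin ligase of the endoplasmic reticulum, read 11.15 and 11.22 at 4 hpf and 8.74 and 8.76 in ZF4, 5.41-fold below, and at 9 hpf still read 8.29 and 7.73. borcs6 was 4.83-fold below, bag4 3.91-fold, cd82b 3.77-fold, slmapb 3.75-fold and uchl1 3.74-fold. In each of these, ZF4 lay between the 4 hpf and the 9 hpf values. By role, both ZF4 arrays lay above both 4 hpf arrays for 3 of 5 probe sets of sugar metabolism and 4 of 7 of redox chemistry. Of those 4, 3 were of prdx1 and the other of gnmt, by 0.08 on the log2 scale. Both ZF4 arrays lay below for 8 of 11 of the cell surface and cytoskeleton, 7 of 10 of the endoplasmic reticulum and 6 of 9 of mitochondria. Over all probe sets 37.2% lay above and 38.8% below. The counts per role are small, and no test compared the roles.

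**Figure D5:**
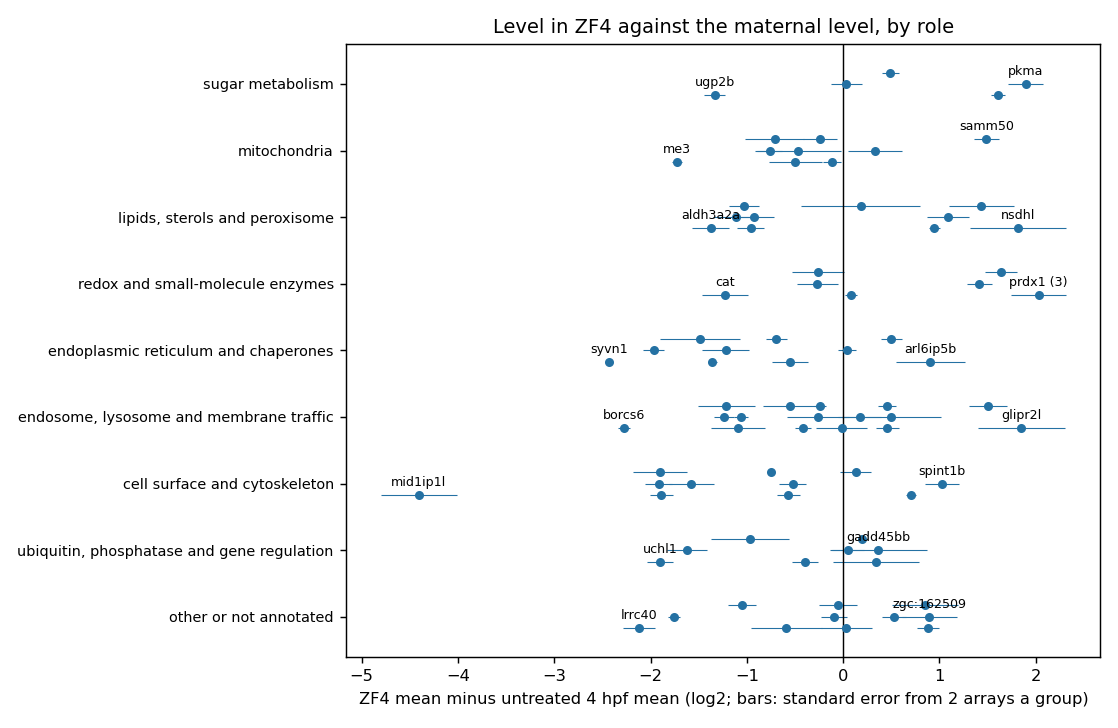
ZF4 mean minus untreated 4 hpf mean (horizontal, log2) for the 87 probe sets by role (rows), with standard errors from 2 arrays a group; the lowest and highest probe set of each role are named. Values run from -4.41 for mid1ip1l to 2.03 for 1 probe set of prdx1.

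Other probe sets of the same genes, 25 that the conditions did not choose, showed where 1 probe set does not speak for a gene. For tmem192, ptpa, pgm1, ilvbl and trpm7, other probe sets fell in RA as well, with log2 changes of -5.04 to -1.89. Their ZF4 means were 9.90 for ptpa, 8.82 for pgm1, 7.69 for trpm7, 7.48 for tmem192 and 8.14, 6.71 and 5.95 for ilvbl. Those of ugp2b and zgc:123010 fell too, with ZF4 means of 6.44 and 5.35. One of pdia5 changed by only -0.91, and that of per2 did not pass (-0.96, adjusted p = 0.11). For gyg1a, a second probe set read 11.60 and 11.53 at untreated 4 hpf, 9.00 and 8.93 at 9 hpf and 8.72 and 8.93 in ZF4, so that it stayed abundant at 9 hpf, where the chosen probe set read 4.23 and 3.91. For spint1b, a probe set without the fall read 5.59 and 5.57 at 4 hpf, 5.15 and 6.09 at 9 hpf and 5.75 and 5.63 in ZF4. Another read 6.60 and 7.10, then 5.11 and 5.12, and 9.07 and 8.84 in ZF4, and another had a mean of 4.37 at untreated 4 hpf, below background, and of 8.64 in ZF4. For cd82b, both other probe sets fell in RA, by 2.21 and 1.94 on the log2 scale, but had ZF4 means of 4.62 and 5.39, where the chosen one read 8 or more. For fitm2, 2 of 3 other probe sets had ZF4 means below background, 4.16 and 5.21, and the third had 7.50. One each of anxa5b, pdia5 and pgk1 was below background on every embryo array.

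Beside the members, the lists of related genes moved in both directions. Of 64 measured genes of lipid, sugar and amino acid metabolism, 7 of them members, 29 fell and 12 rose from 4 to 9 hpf in RA (24.7% of all probe sets fell and 26.1% rose), with a median of -0.37. hk1, the hexokinase that starts glycolysis, was among those that rose, from a mean of 2.44, below background, to 8.97 (adjusted p = 9.9e-06), and had a mean of 10.78 in ZF4. Of 50 stress and immediate early genes, prdx1 and gadd45bb among them, 17 fell and 13 rose, and of 29 lysosomal and protease genes, with ctsz, 7 fell and 7 rose. Of 48 genes of the actin cytoskeleton and adhesion 6 fell, among them cap1, an actin-monomer regulator, from 8.64 and 8.89 to 5.62 and 5.66, and 20 rose. Of 40 fibroblast and matrix genes 4 fell, anxa5b among them, and 18 rose. Of 52 genes of vesicle traffic 27 fell and 8 rose, and of 40 ubiquitin genes, with uchl1, 20 fell and 5 rose. By contrast 17 of 18 maternal and oocyte genes fell, with a median of -4.87, and btg4, buc and cldnd had ZF4 means of 0.64, 3.30 and 4.12, below background.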

How the data were processed

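Per the labels and the study's methods, total RNA was hybridised to Affymetrix Zebrafish GeneChips, and the authors made the deposited log2 values in R with affy's expresso routine (version 2.15.2 in the submitters' processing notes), using mas5 background correction and invariant-set normalization. The file states no log base. Its maximum of 13.9 exceeds 11.09, the natural log of a 16-bit scanner's ceiling, so base 2 was taken. Invariant-set scaling assumes a common set of steady genes, which embryos of different stages and a cell line may lack. The array number, not depth, limits precision.

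AFFX controls (115 of 15617 probe sets) were left out. Gene symbols came from GEO's platform annotation, with 10795 probe sets having 1 symbol, 135 several and 4572 none, and were compared with RefSeq symbols by gene ID. limma (3.58.1, R 4.3.3; lmFit, eBayes with intensity trend) was fitted to 8 arrays that the choice of members did not use (RA 4, 6 and 9 hpf and untreated 6 hpf), with two-sided tests, Benjamini-Hochberg adjustment over all 15502 probe sets and a threshold of 0.05. Falls ending at or below background on both arrays are given against the background level as "at least" folds. The members and lists were chosen with earlier results of these data known. Genes with names other than codes were named by rule: the 15 largest and 5 smallest RA falls, those called between RA and untreated at 6 hpf, the 5 highest in ZF4, 3 on each side of each limit, and any in a list. Genes named beyond it are said to have been singled out, or appear by role or for their other probe sets. Members given for their ZF4 levels, such as syvn1, bag4, samm50 and iqgap1, in part fell outside the rule and were picked by those levels. The labels, which give untreated arrays at 3 stages, were followed where the methods mention 9 hpf only. On data simulated for RA 9 against RA 4 hpf over 15502 probe sets, 36% of changes of -1, 88% of -2, 86% of -3 and 94% of -4 were recovered (50 each), with 8 false calls. Alternatives were quantile normalization, a common median, 32 added before the log, a filter on dim probe sets, no trend, all 12 embryo arrays, a replicate block, each array left out, and other limits for the choice of members.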

Additional observations from a re-analysis of the deposited data

How the results depend on the processing

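All 87 members stayed called lower from RA 4 to RA 9 hpf under every alternative, and no called value of a named gene changed direction. In 2955 repeats of named values, 243 lost and 22 gained a call. The median over all probe sets moved from 0.25 to -0.07 under quantile normalization, while that of the members stayed at -3.64. From RA 4 to RA 6 hpf 52 to 71 members were called. From RA 6 to RA 9 hpf the 58 calls became 39 without the intensity trend and 23 to 58 with 1 array left out (38 without RA 6 hpf replicate 1 and 23 without RA 6 hpf replicate 2). The 16 calls of a larger early fall became 6 without the trend and 10 with the replicate block, and 0 to 16 with 1 array left out. The 16 calls of a larger late fall became 10 without the trend and 2 to 20 with 1 array left out. Fewer arrays alone leave fewer degrees of freedom (4 in the main fit), and the cause of the other changes was not tested. RA against untreated at 6 hpf called 0 members in each direction under all alternatives. Leaving out 1 array of 6 hpf moved the median difference between 0.36 and 0.78.

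Over all probe sets, the replicate numbers showed no pairing of the arrays within the fitted groups. Deviations of same-numbered arrays correlated at -0.029 to 0.080 over the 6 pairs of fitted groups. Over the 87 members these correlations ran from -0.304, between RA and untreated embryos at 6 hpf, to 0.207, between RA embryos at 4 and 9 hpf. Over all probe sets, the correlation between RA and untreated embryos was 0.27 at 4 hpf and -0.38 at 9 hpf, so arrays of those stages may be related. The replicate block gave 87, 71 and 55 calls for the 3 RA comparisons, in the order above. The choice of members gave 51 probe sets with 32 added before the log, 45 of them the same, 258 with a fall of at least 2 and 31 with a fall of at least 4, and 73 to 105 with 1 array left out.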
